A study of Mus musculus with 40 samples.

Results

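The levels of 10 named genes that have been linked to the basal lineage of the mouse mammary gland were followed through 4 cell types, puberty and the estrous cycle. They are Trp63, Snai2, Sox10, Irx4, Mef2c, Myocd, Mkl2, Id2, Twist2 and Slc1a3, and they were taken by name after the Ensembl identifiers of the deposited count tables had been matched to gene symbols. All 10 were present in both tables, among 26132 genes listed in either table. Mkl2 is listed under its newer symbol Mrtfb. Slc1a3 encodes a plasma membrane transporter of glutamate and aspartate and is not a transcription factor, and Myocd, Mkl2 and Id2 encode proteins that act through other DNA-binding factors.

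The ducts of the mammary gland have an inner layer of luminal cells and an outer layer of basal cells, most of which are contractile myoepithelial cells that squeeze milk toward the nipple. The p63 protein, encoded by Trp63, specifies and maintains basal cells of many epithelia, and the Snail family repressor Slug, encoded by Snai2, is linked to mammary basal and stem cell states. Serum response factor (Srf) drives contractile genes together with its coactivators of the myocardin family, Myocd, Mkl1 and Mkl2.

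The libraries were polyA RNA-seq of cells from wild-type virgin female FVB/N mice. Pubertal glands came from mice of postnatal day 34 to 36, pooled by 4, and adult glands from mice aged 14 to 16 weeks, pooled by 2 or 3 and staged as proestrus, estrus, metestrus or diestrus. Sorted basal cells, sorted luminal cells, adipocytes (labelled Fat, the floating fraction after centrifugation) and fibroblasts (labelled Stromal, sorted as negative for lineage markers, EpCAM and CD49f) were each profiled with 2 libraries in puberty and 2 in each adult stage, 40 libraries in all. The adult libraries held 8991222 to 22760563 counts and the pubertal libraries 11774264 to 19033586. Nothing in the labels says how far the replicates of a stage were handled apart, so the p-values measure the spread between these pools.

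Summed markers of each of the 4 cell types were highest in the fraction named for it. The summed level of 8 basal markers was 12214 to 22204 CPM (counts scaled to a common library size) in basal libraries and 39.5 to 88.8 CPM in luminal libraries, and all 8 were detected in each. In fibroblast libraries the same sum was 1115 to 2136 CPM, and in adipocyte libraries it ran from 93.3 to 4087 CPM. Its largest parts in adult fibroblasts were Acta2 (473 to 1256 CPM) and Myh11 (570 to 947 CPM). The keratins Krt5, Krt14 and Krt17 had medians of 5.45, 18.5 and 13.5 CPM there. The adipocyte libraries also held fibroblast markers (3381 to 18381 CPM for 8 genes) and endothelial markers (534 to 2771 CPM for 8 genes). In bulk libraries fewer cells of a type and less RNA per cell cannot be told apart.

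Judged by their levels over the 4 cell types, the 10 genes were not all highest in basal cells. Adult basal cells exceeded luminal cells for 9 of the 10, against 38.3% of all genes tested. In adult glands 4 of the 10, Trp63, Snai2, Sox10 and Irx4, were higher in basal cells than in each of the other types at an adjusted p under 0.05, where 17.7% of all 15077 genes tested met the same rule. The others had other patterns. Myocd, Id2 and Twist2 were highest in fibroblasts (15.7% of all genes), Slc1a3 was highest in adipocytes (20.5%), and Mef2c and Mkl2 had no single highest type. In puberty 3 of the 10, Trp63, Snai2 and Irx4, were higher in basal cells than in each other type, against 4.01% of 14263 genes.

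Promoter sequences are shown for 3 genes, one from each pattern: Irx4, the gene of the set with the highest rank among basal genes, Slc1a3, whose basal level differed most between puberty and adulthood, and Twist2, one of the 3 genes highest in adult fibroblasts. Each window covers 250 bases before to 50 bases after the transcription start, from RefSeq on GRCm38.p6. The search covered the E-box (CANNTG, on both strands), the core letters recognised by Snail, Zeb and basic helix-loop-helix proteins, of which CAGGTG is a subset. Capitals mark the E-box. The windows lie at chr13:73260247-73260546 on the plus strand (Irx4), chr15:8710758-8711057 on the minus strand (Slc1a3) and chr1:91801211-91801510 on the plus strand (Twist2), and each runs 5′ to 3′ in the direction of its gene.
Irx4: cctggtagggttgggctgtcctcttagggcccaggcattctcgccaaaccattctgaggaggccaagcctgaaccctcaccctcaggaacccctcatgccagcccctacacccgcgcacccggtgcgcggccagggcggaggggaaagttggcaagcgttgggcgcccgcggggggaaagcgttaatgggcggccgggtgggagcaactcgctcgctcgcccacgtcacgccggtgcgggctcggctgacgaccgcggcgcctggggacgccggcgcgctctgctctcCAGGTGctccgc
Slc1a3: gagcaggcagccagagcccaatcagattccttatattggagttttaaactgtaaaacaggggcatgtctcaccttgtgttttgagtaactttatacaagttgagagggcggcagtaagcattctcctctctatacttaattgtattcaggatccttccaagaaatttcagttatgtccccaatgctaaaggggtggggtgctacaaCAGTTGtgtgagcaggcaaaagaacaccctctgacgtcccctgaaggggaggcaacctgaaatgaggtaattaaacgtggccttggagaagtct
Twist2: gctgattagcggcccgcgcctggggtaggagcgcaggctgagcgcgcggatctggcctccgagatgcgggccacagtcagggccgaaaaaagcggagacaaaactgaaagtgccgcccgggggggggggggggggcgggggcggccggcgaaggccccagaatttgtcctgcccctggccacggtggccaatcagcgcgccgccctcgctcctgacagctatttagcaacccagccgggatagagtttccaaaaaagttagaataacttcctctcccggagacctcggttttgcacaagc
The Irx4 window had a GC content of 70.7%, 31 CpG dinucleotides and 1 E-box, which was a CAGGTG. The Twist2 window had 64.7% GC and 25 CpGs and no E-box. The Slc1a3 window was of the opposite kind, with 45.3% GC, 3 CpGs, 1 E-box, 1 TATAAA and 3 CCAAT motifs, the last 2 also counted on both strands. Across 32851 promoter windows of this length the median number of CpGs was 7, and an E-box was found in 72.3%, CAGGTG in 20.2%, TATAAA in 13.6% and CCAAT in 37.4%, so these matches are descriptions of common letters. The promoter table listed 6 of the 10 genes, and Trp63, Snai2, Sox10 and Myocd had none.

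**Figure D1:**
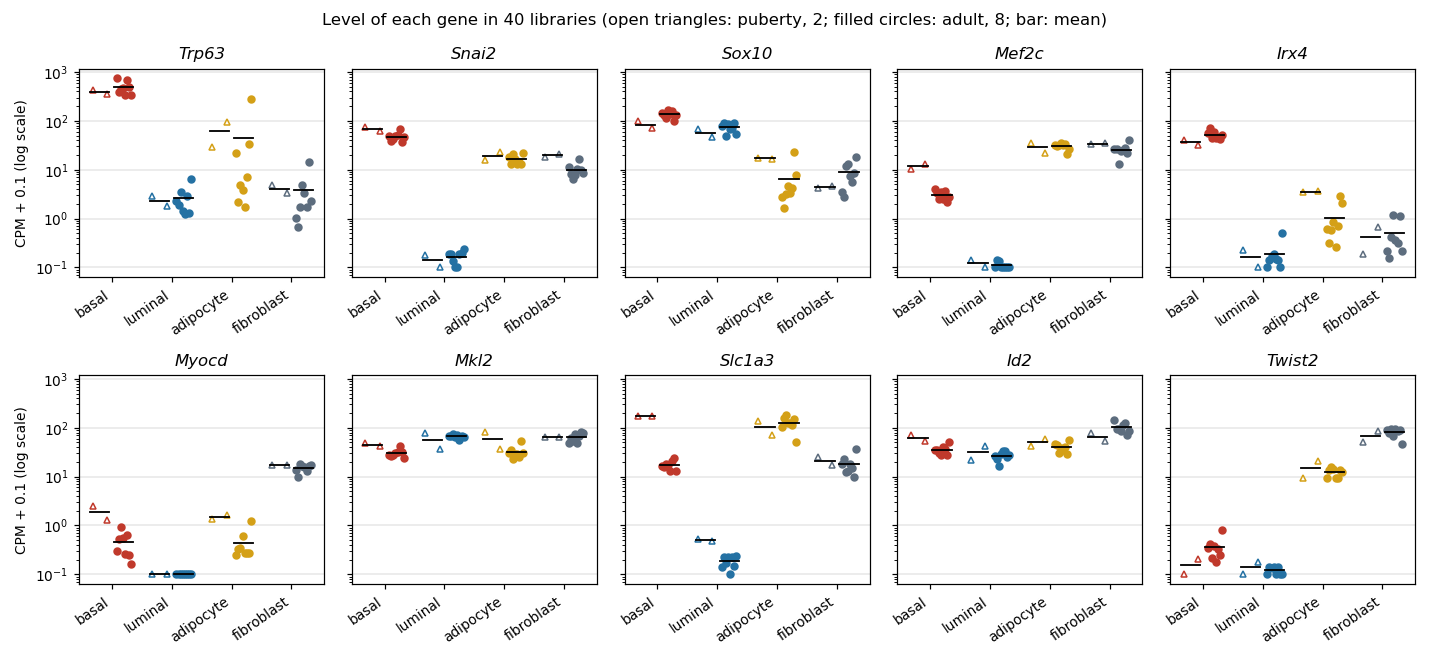
Level of each of the 10 genes in every library, as CPM + 0.1 on a log axis, by cell type. Open triangles are the 2 pubertal libraries, filled circles the 8 adult libraries and bars the means. Trp63, Snai2, Sox10 and Irx4 lie highest in basal cells, Twist2 and Myocd lie highest in fibroblasts, and the pubertal basal libraries of Slc1a3 (177 and 172 CPM) stand above all adult basal ones.

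Trp63 (chr16:25683763-25892102, plus strand, GRCm38) had the highest level per exon length of the 10 in adult basal cells, 58.5 ± 17.98 (SD, n = 8) reads per kilobase of exon, scaled to depth (RPKM). Its 8 adult basal libraries ranged from 336 to 754 CPM with a median of 459, and the pubertal pair held 435 and 350 CPM. Luminal cells had 1.12 to 6.47 CPM across all 10 libraries. The basal libraries did not overlap those of any other type, and adult basal cells were higher by 7.63 ± 0.63 (log2 fold change ± SE) than luminal cells (adjusted p = 6.6e-10), by 5.16 ± 0.56 than adipocytes (2.8e-08) and by 7.51 ± 0.64 than fibroblasts (1.1e-09; edgeR quasi-likelihood test with Benjamini-Hochberg adjustment, used for every adjusted p here). The 3 contrasts share their basal libraries. In puberty the differences were 7.42 ± 0.68, 2.62 ± 0.53 and 6.53 ± 0.65 (0.000109, 0.00525 and 0.000173).

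Adipocyte fractions were the exception to the low Trp63 level outside basal cells. The proestrus pair held 21.8 and 2.07 CPM, estrus 4.78 and 3.80, metestrus 1.59 and 7.04, and diestrus 33.9 and 279 CPM, while the pubertal pair held 28.6 and 94.3 CPM. The adipocyte library with most Trp63, the second diestrus replicate, also had the largest sums of basal markers (4087 CPM) and of 8 epidermal markers (2706 CPM, against 16.7 to 39.98 CPM in 7 of the 10 adipocyte libraries). The first proestrus replicate had 347 CPM and the second pubertal replicate 1331 CPM of epidermal markers. The part of these markers in the adipocyte values was not tested. In the order of adult Trp63 levels, adipocytes and fibroblasts overlapped, as did fibroblasts and luminal cells.

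Snai2 (chr16:14705852-14709385, plus strand) was present in basal cells, adipocytes and fibroblasts and was nearly absent from luminal cells. Adult basal libraries held 37.7 to 66.7 CPM (median 47.8), adipocytes 12.7 to 22.2 (median 15.7), fibroblasts 6.41 to 16.5 (median 9.06) and luminal cells 0 to 0.138. The basal range lay above every other type, whereas adipocytes and fibroblasts overlapped. Basal cells exceeded luminal cells by 9.53 ± 0.26, adipocytes by 1.54 ± 0.15 and fibroblasts by 2.29 ± 0.15 on the log2 scale (adjusted p = 2.4e-17, 4.3e-09 and 2.4e-11). In pubertal glands luminal cells held 2 counts in all and basal cells 2673, a ratio of 1271 with an exact 95% counting interval of 352 to 10503. Pubertal basal cells (74.4 and 62.97 CPM) exceeded adipocytes (16 and 22.9 CPM) by 1.77 ± 0.33 (adjusted p = 0.00372) and fibroblasts (17.7 and 21.3 CPM) by 1.74 ± 0.34 (0.00425), the latter lost without the first fibroblast replicate (1.59, 0.0551).

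Sox10 (chr15:79154908-79165240, minus strand), a SoxE factor of neural crest, glia and mammary epithelium, was shared by both epithelial layers. Its adult level was 101 to 168 CPM in basal cells (median 138) and 49.7 to 90.0 in luminal cells (median 73.9), and these ranges did not overlap. Fibroblasts held 2.68 to 18.1 CPM and adipocytes 1.51 to 22.8 CPM, overlapping each other. The basal excess was small over luminal cells, 0.90 ± 0.20 (adjusted p = 0.00037), and large over adipocytes (4.88 ± 0.24, 1.2e-13) and fibroblasts (4.16 ± 0.23, 1.3e-12). In puberty basal cells (97.5 and 70.2 CPM) and luminal cells (45.9 and 67.5 CPM) differed by 0.56 ± 0.28, which did not pass the test (adjusted p = 0.15). The summed level of 7 Schwann cell markers was 202 to 536 CPM in adult fibroblasts, 139 to 302 CPM in adult adipocytes and 120 to 191 CPM in adult luminal cells. In adipocytes and luminal cells most of it was Mbp (medians 141 and 146 CPM). The part of these markers in the Sox10 values was not tested.

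Irx4 (chr13:73260479-73269608, plus strand), an Iroquois homeobox factor best known from the heart ventricle, was the most basal-restricted of the 10. The 8 adult basal libraries held 43.4 to 70.7 CPM (median 49.8), and no luminal library exceeded 0.413 CPM, no fibroblast library 1.06 CPM and no adult adipocyte library 2.79 CPM. Ranked by the smallest of the 3 basal contrasts, Irx4 was 17th and Trp63 40th of 15077 genes in adult glands, with Snai2 at 416 and Sox10 at 817. Basal cells exceeded luminal cells by 9.47 ± 0.37, adipocytes by 6.27 ± 0.30 and fibroblasts by 7.36 ± 0.33 (adjusted p = 6.8e-15, 7.2e-14 and 4.5e-14). In puberty the corresponding differences were 8.71 ± 0.76, 3.35 ± 0.52 and 6.70 ± 0.68 (8.97e-05, 0.00152 and 0.000183), and the pubertal rank was 74 of 14263.

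**Figure D2:**
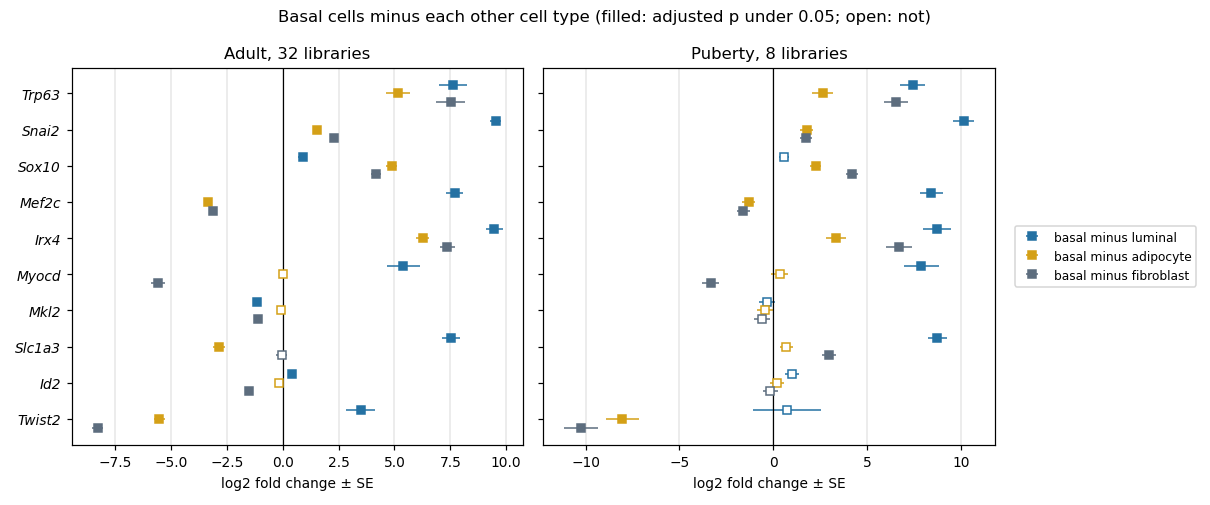
Log2 fold change of each gene in basal cells over luminal cells, adipocytes and fibroblasts, with the SE as bars, in adult (left) and pubertal (right) glands. Filled squares passed an adjusted p under 0.05 and open squares did not, and the fitted values of genes at or near 0 counts in 1 cell type depend on the prior count. Trp63, Snai2, Sox10 and Irx4 lie above 0 against all 3 other types in both ages (the pubertal Sox10 square against luminal cells is open), whereas adult Twist2 lies at -5.52 against adipocytes and -8.28 against fibroblasts.

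Across the 3 contrasts, 9 of the 10 genes were higher and 1 lower in adult basal than in luminal cells (38.3% and 35.3% of all genes tested), 4 were higher and 3 lower than in adipocytes (39.6% and 44.6%), and 4 were higher and 5 lower than in fibroblasts (39.5% and 37.5%). The pubertal fit of 8 libraries placed 6 of the 10 higher and 0 lower than in luminal cells (18.9% and 18.3% of all genes), 4 higher and 2 lower than in adipocytes (15% and 26%) and 5 higher and 3 lower than in fibroblasts (15.2% and 20.6%). In either direction, 73.6%, 84.2% and 77% of all adult genes differed between basal cells and the 3 types, so that a call alone says little of a gene.

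The regulators best known from muscle were not highest in basal cells. Mef2c (chr13:83504034-83667080, plus strand), a MADS-box factor of muscle, neural crest and endothelial cells, held 2.11 to 3.87 CPM in adult basal cells (median 2.92), 20.9 to 35.1 in adipocytes (median 31.8) and 12.97 to 40.3 in fibroblasts (median 25.9). Luminal cells had 2 counts over the 8 adult libraries, against 426 in basal cells, a ratio of 273 (counting interval 75.1 to 2262). Basal cells were lower than adipocytes by a log2 difference of -3.35 ± 0.17 (adjusted p = 1.2e-12) and lower than fibroblasts by -3.11 ± 0.17 (5.9e-12), with no overlap, while adipocytes and fibroblasts overlapped and did not differ by the test (0.25 ± 0.15, 0.14), in a contrast that called 78.4% of all genes. With the pool of mice as a block, that last difference passed (0.28, adjusted p = 0.0469). Pubertal basal cells were lower than adipocytes (35.3 and 21.9 CPM) by -1.32 ± 0.33 (0.0136) and than fibroblasts (33.6 and 34.4 CPM) by -1.60 ± 0.33 (0.00635). The first of these calls was lost without either pubertal basal replicate or the first adipocyte one (adjusted p 0.0605 to 0.129), and the second without the first basal replicate (0.0789). Endothelial markers summed to 540 to 1717 CPM in adult adipocytes and 951 to 2566 CPM in adult fibroblasts, whose sort used CD31 to remove endothelial cells. The part of these markers, or of the leukocyte and skeletal muscle markers in adipocyte libraries, in the Mef2c level was not tested.

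Myocd (chr11:65176561-65269989, minus strand), the founding coactivator of Srf in smooth and cardiac muscle, was a fibroblast-fraction gene here. Adult fibroblasts held 9.66 to 18.1 CPM (median 15.8), adult basal cells 0.0605 to 0.835 (median 0.310) and adult adipocytes 0.147 to 1.14 (median 0.197), and no luminal library had a count. Basal cells lay below fibroblasts by -5.60 ± 0.32 in adults (adjusted p = 6.1e-11) and -3.34 ± 0.45 in puberty (0.00117), and adult basal cells and adipocytes overlapped (-0.00 ± 0.18, 1). Against the limit that a count of 0 allows, taken as 3 counts over the luminal libraries, adult fibroblasts were at least 888-fold higher and adult basal cells at least 21.4-fold higher than luminal cells. All 7 pericyte and smooth muscle markers were present in adult fibroblast libraries (sum 1213 to 1714 CPM, against 8.77 to 18 CPM in adult basal cells). All 7 were also present in adult adipocytes, at 334 to 919 CPM, where Myocd held 0.147 to 1.14 CPM. The make-up of these sums by single marker is not given here, so they do not rank the fractions by pericyte content. The part of these markers in the Myocd level was not tested.

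Mkl2 (chr16:13256481-13417529, plus strand), an Srf coactivator controlled by actin, was present in every cell type within a narrow range. Adult levels were 23.96 to 41.3 CPM in basal cells (median 29.1), 23.4 to 52.8 in adipocytes (median 29.98), 47.7 to 81.1 in fibroblasts (median 64.3) and 56.7 to 73.8 in luminal cells (median 67.2). Basal cells did not overlap luminal cells or fibroblasts and were lower than both, by -1.16 ± 0.12 (adjusted p = 1.3e-08) and -1.09 ± 0.12 (3.4e-08). Luminal cells and fibroblasts did not differ by the test (0.07 ± 0.11, 0.59, where 81% of all genes were called), nor did basal cells and adipocytes (-0.09 ± 0.12, 0.5). In puberty no contrast of basal cells passed for Mkl2. A gene on the opposite strand, Gm15738, shares 162 exonic bases with Mkl2 and never exceeded 2 counts.

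Among the 2 remaining helix-loop-helix proteins, Id2 (chr12:25093799-25097140, minus strand) lacks a DNA-binding region and blocks its partners. It held 71.7 to 142 CPM in adult fibroblasts (median 94.4), above the 29.5 to 55.9 CPM of adipocytes, the 27.1 to 50.9 CPM of basal cells and the 16.2 to 33.1 CPM of luminal cells. Basal cells lay 1.52 log2 units below fibroblasts (-1.52 ± 0.15, adjusted p = 9.7e-09), did not differ from adipocytes by the test (-0.18 ± 0.15, 0.25) and exceeded luminal cells by 0.41 ± 0.15 (0.016) with overlapping ranges. That last call was lost on leaving out any of 6 of the 32 libraries in turn. No pubertal contrast of basal cells passed for Id2.

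Twist2 (chr1:91801461-91848028, plus strand), a basic helix-loop-helix repressor of mesenchyme, was the least basal of the 10. Adult fibroblasts held 46.2 to 94.0 CPM (median 88.5) and adipocytes 9.14 to 15.5 (median 12.7), whereas basal cells held 0.0793 to 0.726 and luminal cells 0 to 0.0433. The 4 types did not overlap. Basal cells were lower than fibroblasts by -8.28 ± 0.25 (adjusted p = 4.9e-16) and than adipocytes by -5.52 ± 0.25 (8.1e-14). In puberty the 2 basal libraries held 2 counts in all, and fibroblasts exceeded them by a ratio of 1320 (counting interval 365 to 10911). A gene on the opposite strand, Gm29100, shares 1477 exonic bases with Twist2 and never exceeded 17 counts in a library.

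Slc1a3 (chr15:8634124-8710764, minus strand), a glutamate and aspartate carrier, was an adipocyte-fraction gene in adult glands. Adult adipocytes held 51.7 to 181 CPM (median 124), fibroblasts 9.62 to 36.1 (median 16.6), basal cells 12.8 to 23.6 (median 16.6) and luminal cells 0 to 0.138. Adipocytes overlapped no other type, and the basal range lay inside that of fibroblasts (basal minus fibroblast -0.05 ± 0.24, adjusted p = 0.88). Basal cells were below adipocytes by -2.85 ± 0.25 (1.2e-09) and above luminal cells by 7.53 ± 0.41 (1.2e-12). In puberty the order changed: basal cells had 177 and 172 CPM, adipocytes 138 and 70.6, fibroblasts 17.5 and 24.9 and luminal cells 0.383 and 0.417, with basal cells 2.96 ± 0.37 above fibroblasts (adjusted p = 0.000486) and 0.70 ± 0.34 from adipocytes, which did not pass (0.13).

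Pubertal and adult libraries of each cell type were then compared, taking the mean of the 4 adult stages on the log scale. By the study's account, the pubertal libraries were sequenced in a run of their own. Pubertal mice were pooled before sorting and adult mice at RNA isolation. The pubertal libraries were also counted and deposited as a set of their own, so that age, run, pooling and set cannot be told apart. In basal cells 4 of the 10 genes were higher in puberty and 0 lower, against 18.5% and 15.8% of 15356 genes. A fit of the basal libraries alone called 8 of the 10, adding Snai2 and Mkl2 as higher and Sox10 and Irx4 as lower. The share of all genes called in that fit is not given here, so this count has no background beside it. Pubertal basal libraries differed from adult ones in epidermal markers, with sums of 120 and 198 CPM against 6.02 to 13.4 CPM. Krt1, a keratin of differentiating epidermis, held 34.3 and 55.8 CPM there and at most 0.363 CPM in adult basal libraries. Lor (0.204 to 0.207 CPM against 0.251 to 0.847 CPM in adults) and Calml3 (1.53 to 1.86 CPM against 2.22 to 8.08 CPM) went the other way. The rest of the measured epidermal markers lay above the adult range. The part of these markers in the pubertal basal values was not tested.

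Slc1a3 showed the largest of these differences. Its pubertal pair of 177 and 172 CPM lay far above the adult range of 12.8 to 23.6 CPM, a ratio of means of 10.1 and a log2 difference of 3.34 ± 0.31 (adjusted p = 2.5e-08). The call held on leaving out each of the 40 libraries in turn, with differences of 3.25 to 3.52. The difference in basal cells also exceeded that in adipocytes (by 3.60 ± 0.54, adjusted p = 6.9e-05) and in fibroblasts (by 3.08 ± 0.54, 0.0011) in a test of the interaction. Adipocytes were the adult cell type with most Slc1a3. Their markers summed to 8.43 and 11.3 CPM in pubertal basal libraries and 16.7 to 29.3 CPM in adult ones. Of the 8 markers, 5 and 6 were detected in the pubertal basal libraries and 6 to 8 in the adult ones. Whether adipocyte RNA adds to the basal Slc1a3 values was not tested.

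Mef2c was also higher in pubertal basal cells, with 10.4 and 13.3 CPM against 2.11 to 3.87 CPM (2.01 ± 0.23, adjusted p = 9.9e-07), and did not overlap the adult range. Myocd held 2.403 and 1.19 CPM against 0.0605 to 0.835 CPM, from 70 pubertal and 50 adult counts (2.56 ± 0.42, 0.00012). Id2 held 70.2 and 54.2 CPM against 27.1 to 50.9 CPM (0.82 ± 0.24, 0.0105), and its call was lost without the first pubertal basal replicate (0.68, 0.139). Each of the 3 differed more in basal cells than in fibroblasts, by 1.58 ± 0.36 for Mef2c (0.0097), 2.34 ± 0.59 for Myocd (0.021) and 1.44 ± 0.36 for Id2 (0.018), and Mef2c also more than in adipocytes (2.08 ± 0.36, 0.00031). Against fibroblasts the Mef2c call was lost without the second basal or either fibroblast pubertal replicate (adjusted p 0.056 to 0.0705), that of Myocd without the first basal or either fibroblast one (0.083 to 0.256), and that of Id2 without the first basal or the second fibroblast one (0.155 and 0.175). These interactions were called for 4 genes each against adipocytes and fibroblasts, where 24.7% and 6.39% of all genes were called in either direction. Fibroblast markers in the pubertal basal libraries (86.9 and 89.3 CPM) lay within the adult basal range (61.2 to 146 CPM). Pericyte and smooth muscle markers (14.1 and 10.8 CPM against 8.77 to 18 CPM) also lay within their adult range. So did endothelial markers (17.4 and 12.2 CPM against 9.40 to 34.3 CPM). Whether RNA of these cell types adds to the basal Mef2c, Myocd and Id2 values was not tested.

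The epithelial regulators differed less between the ages. Trp63 overlapped between the ages in basal cells (log2 difference -0.31 ± 0.72, adjusted p = 0.79). Snai2 held 74.4 and 62.97 CPM, of which the second lay inside the adult range (0.54 ± 0.22, 0.063). Mkl2 held 47.6 and 42.3 CPM, above every adult basal library, and did not pass (0.59 ± 0.24, 0.057). Both pubertal libraries lay below all adult ones for Sox10 (97.5 and 70.2 CPM, -0.70 ± 0.32, 0.092) and Irx4 (39.7 and 32.5 CPM, -0.53 ± 0.37, 0.30), also without passing.

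**Figure D3:**
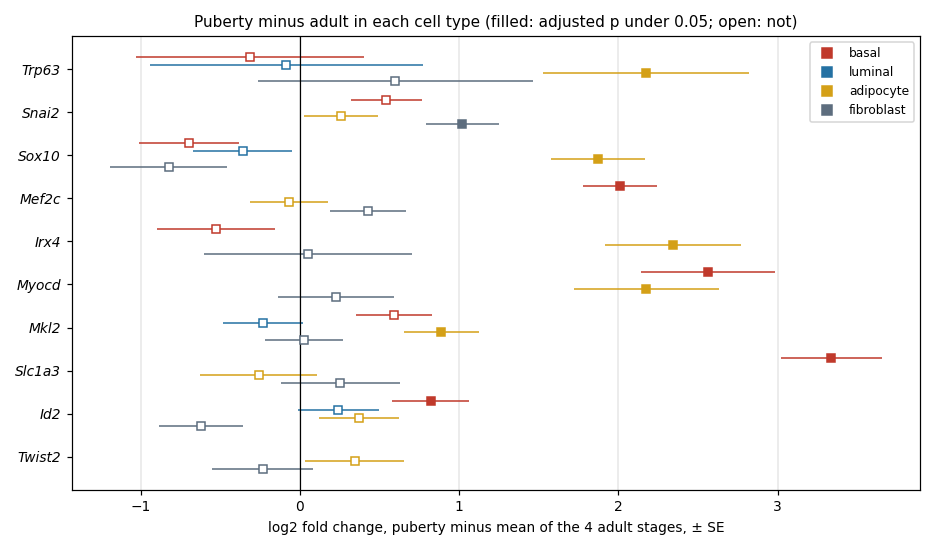
Log2 difference between puberty and the mean of the adult stages for each gene in each cell type, with the SE as bars. Filled symbols passed an adjusted p under 0.05, and cell types in which no library of the gene exceeded 1 CPM are left out. Slc1a3, Mef2c and Myocd are the largest differences shown in basal cells (3.34, 2.01 and 2.56), while Irx4, Sox10, Trp63 and Myocd lie near 2 in adipocytes.

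In adipocytes a different group was higher in puberty: 5 of the 10 passed, all higher, against 14.7% of all genes. Irx4 held 3.32 and 3.51 CPM against 0.168 to 2.79 CPM in adults (2.34 ± 0.43, adjusted p = 0.00047), Sox10 17.4 and 16.4 CPM against 1.51 to 22.8 CPM (1.87 ± 0.29, 0.00011), and Myocd 1.24 and 1.503 CPM against 0.147 to 1.14 CPM (2.18 ± 0.45, 0.0022). Trp63 (2.18 ± 0.65, 0.017) lost its call without the second pubertal replicate (1.07, 0.40). Mkl2 (80.6 and 36.6 CPM against 23.4 to 52.8 CPM, 0.89 ± 0.23, 0.0080) lost it without the first (0.21, 0.68). Basal markers summed to 548 and 2454 CPM in the pubertal adipocyte libraries and to 93.3 to 590 CPM in 7 of the 8 adult ones, and luminal markers to 1428 and 838 CPM against 180 to 514 CPM in 7 of the 8. The part of the basal and luminal markers in these adipocyte values was not tested. A fit of the adipocyte libraries alone called 2 of the 10, Sox10 and Irx4, and its share of all genes is likewise not given. For these 2 genes the basal difference between the ages was the lower one in the test of the interaction, by -2.57 ± 0.45 for Sox10 (0.00029) and -2.87 ± 0.59 for Irx4 (0.001).

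In fibroblasts 1 gene, Snai2, was higher in puberty (17.7 and 21.3 CPM against 6.41 to 16.5 CPM, 1.02 ± 0.23, adjusted p = 0.0023), against 12.1% of all genes, and the call was lost without the second pubertal replicate (0.88, 0.075). Luminal cells had 0 of the 10 called by edgeR (13.4% of all genes in either direction), with 1 at an unadjusted p under 0.05 and 1 called by DESeq2, Slc1a3 in both cases. The Slc1a3 levels were 0.383 and 0.417 CPM against 0 to 0.138 CPM. The interaction of age with basal against luminal cells was called for 0 genes (17.2% of all genes), with 1 at an unadjusted p under 0.05. With the pool of mice as a block, Mkl2 was called there (0.93 ± 0.29, adjusted p = 0.032).

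Across the estrous cycle the basal levels of the 10 genes moved little. Apart from Myocd and Twist2, which were near 0 in adult basal cells, the highest stage mean exceeded the lowest by a ratio of 1.13 (Slc1a3) to 1.48 (Mef2c). Trp63 averaged 576 CPM in proestrus and 418 CPM in diestrus, Sox10 149 CPM in metestrus and 118 CPM in diestrus, Irx4 63.3 CPM in proestrus and 46.4 CPM in metestrus, and Snai2 59.0 CPM in metestrus and 42.7 CPM in diestrus. The proestrus and diestrus libraries of Trp63 overlapped (754 and 399 CPM against 500 and 336 CPM), whereas both proestrus libraries of Irx4 (55.9 and 70.7 CPM) lay above both metestrus ones (44.9 and 47.8 CPM). None of the 8 genes tested in basal cells was called between any pair of stages or for any stage against the mean of the others by edgeR or DESeq2, with 2 (Snai2 and Mkl2) at an unadjusted p under 0.05. Of all basal genes 0.0247% were called between stages and 1.22% against the mean.

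The other sorted cells gave few calls. In luminal cells 0 of the 4 genes tested were called by edgeR or DESeq2, with 1 (Id2) at an unadjusted p under 0.05, against 0.309% of all genes between stages and 0.471% against the mean. In fibroblasts 0 of the 9 genes tested were called by edgeR between stages or against the mean, as were 0% of all genes, with 7 at an unadjusted p under 0.05 and 2 called by DESeq2 (Trp63 and Sox10). Fibroblast Trp63 held 14.6 and 2.18 CPM in diestrus and 0.941 and 0.558 CPM in proestrus, so that 1 library gave most of the diestrus mean. Fibroblast Sox10 held 8.36 and 18.1 CPM in diestrus, 12.0 and 13.2 CPM in estrus and 3.47 and 2.68 CPM in proestrus. Luminal markers summed to 247 and 376, 169 and 321, and 85.97 and 108 CPM in those libraries, in that order. One of these markers, Kit, held 10.3 to 142 CPM in adult fibroblasts. Schwann cell markers summed to 232 and 202, 536 and 531, and 246 and 219 CPM in the same order. The part of either list was not tested.

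In the edgeR fits of each cell type alone, with the filter on low counts, the calls between stages were in diestrus adipocytes. Compared with the average of the remaining stages, Trp63 (4.66 ± 0.96, adjusted p = 0.040), Irx4 (2.4 ± 0.47, 0.036) and Sox10 (2.27 ± 0.43, 0.035) were higher in diestrus, 3 of 9 genes tested against 7.53% of all genes. Sox10 held 22.8 and 7.61 CPM in diestrus and 1.51 to 4.62 CPM in the other stages, and Irx4 2.79 and 1.99 CPM against 0.168 to 0.744 CPM, so that diestrus did not overlap the rest for these genes or for Trp63. No pair of stages was called for any of the 9 by edgeR (0.0801% of all genes), with 5 at an unadjusted p under 0.05 and 3 called by DESeq2. All 3 calls were lost with the replicate number as a block (adjusted p 0.0855 to 0.105). The numbers join different pools of mice and mark early and late pools of a stage where these could be told apart. The calls were also lost on leaving out any of the 6 adipocyte libraries of the other stages (adjusted p 0.059 to 0.116), and without the second diestrus replicate the Trp63 difference was 2.50 (0.135). The 2 diestrus libraries also had the largest basal marker sums (590 and 4087 CPM) and luminal marker sums (1450 and 514 CPM) of the 8 adult adipocyte libraries, and their part was not tested.

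**Figure D4:**
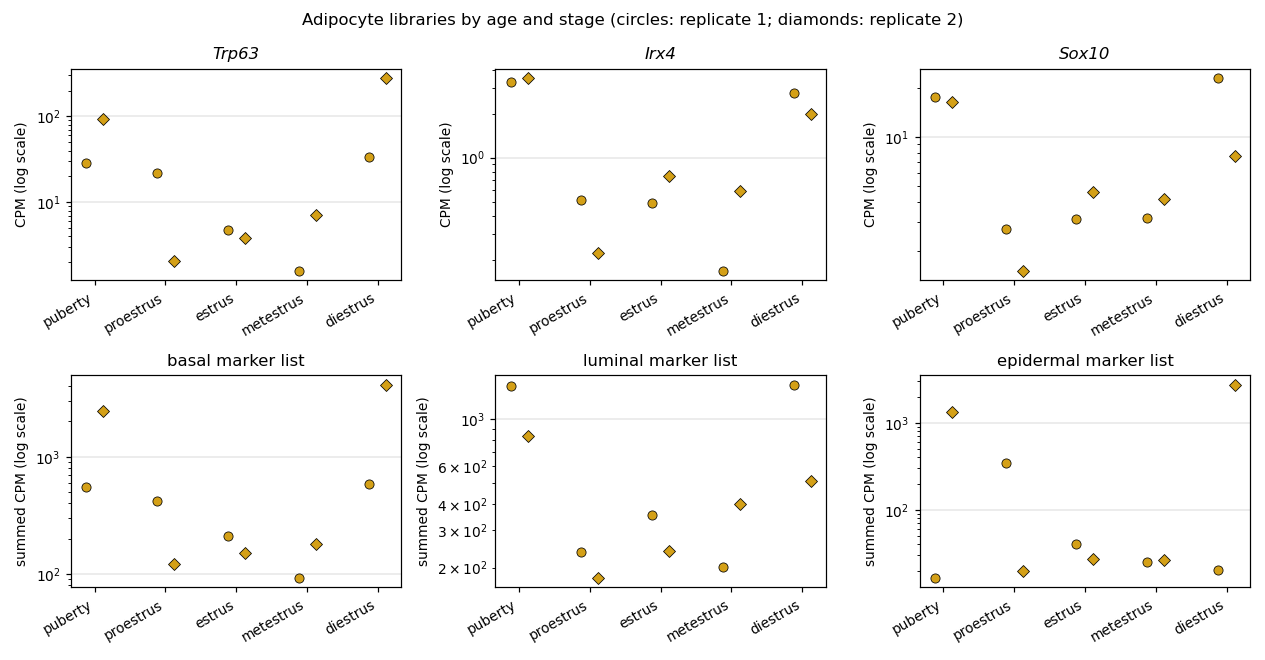
Levels of Trp63, Sox10 and Irx4 in the 10 adipocyte libraries, by puberty and estrous stage, beside the summed levels of basal, luminal and epidermal markers in the same libraries, on log axes. Diestrus replicate 2 holds the most Trp63 (279 CPM) and the largest basal (4087 CPM) and epidermal (2706 CPM) sums, whereas diestrus replicate 1 holds the most Sox10 (22.8 CPM) and the largest luminal sum (1450 CPM).

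Relatives of the 10 genes were compared by RPKM, which allows genes of different length to be set beside each other. Of the myocardin family, Mkl1 was the basal member, at 25.9 RPKM in adult basal cells against 3.04 to 6.40 in the other types (2.16 ± 0.13 over luminal cells, adjusted p = 4.7e-12), while Mkl2 stood at 3.34 and Myocd at 0.0544 RPKM. Srf itself was at 42.7 RPKM in basal and 47.7 in luminal cells and did not differ between them by the test (-0.15 ± 0.12, 0.27). Of 16 contractile genes that Srf and myocardin factors are known to drive, 15 were higher in adult basal than luminal cells, against 38.3% of all genes, and 0 lower (median log2 difference 6.20, all genes 0.04). Against adipocytes the counts were 15 (39.6% of all genes) and 0 (median 3.54, all genes -0.14), and against fibroblasts 14 (39.5%) and 1 (1.58, all genes 0.04). Actg2, a smooth muscle actin, exceeded luminal cells by 11.17 ± 0.36, and Synpo2 was the one lower than in fibroblasts (-1.11 ± 0.16). Between puberty and adulthood 1 of the 16 was higher (18.5% of all genes) and 1 lower (15.8%) in basal cells.

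Among 15 adhesion and keratin genes of basal epithelium that are linked to p63, 14 were higher (38.3% of all genes) and 0 lower in adult basal than luminal cells, and all 15 were higher than in adipocytes (39.6%) and in fibroblasts (39.5%), with medians of 2.98, 5.15 and 4.79. Krt5 exceeded luminal cells by 10.42 ± 0.80 and Col17a1, a hemidesmosome collagen, by 10.07 ± 0.79. Among the p53 family, Trp63 stood at 58.5, Trp53 at 38.2 and Trp73 at 0.375 RPKM in adult basal cells. In adipocytes 12 of these 15 were higher in puberty than in adults (14.7% of all genes) and 0 lower. In diestrus adipocytes 12 were higher than in the other stages on average (7.53%). Basal markers summed to 590 CPM in the first diestrus adipocyte replicate and 4087 CPM in the second. How far either count of 12 rests on 1 library was not tested. Krt5 and Krt14 belong both to these 15 genes and to the basal markers summed above. The part of the basal markers in these calls was not tested.

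Among the Iroquois genes, Irx4 was not the most abundant one in basal cells. Irx1, Irx2 and Irx3 stood at 146, 52.7 and 33.7 RPKM in adult basal cells, above Irx4 at 20.1 RPKM and Irx5 at 18.1 RPKM, but they were also high in luminal cells (70.2, 40.5 and 27.3 RPKM), where Irx4 was at 0.0339 RPKM. All 5 of the Iroquois genes tested were higher in basal than in luminal cells (Irx4 included), against 38.3% of all genes. Sox10 was at 44.7 and Sox9 at 17.8 RPKM in basal cells, and in luminal cells they stood at 23.97 and 38.5 RPKM, with Sox9 lower in basal than luminal cells (-1.12 ± 0.26, adjusted p = 0.0007).

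Among the repressors linked to epithelial-mesenchymal transition, Snai2 was the most abundant in adult basal cells. It was at 23.6 RPKM there, where Snai1 was at 1.72, Snai3 at 0.883, Zeb1 at 0.0705, Zeb2 at 0.0303, Twist1 at 0.194 and Twist2 at 0.0852 RPKM. In adult fibroblasts Twist1 stood at 32.4, Snai1 at 29.8, Twist2 at 25.5, Zeb1 at 13.7, Zeb2 at 10.1 and Snai2 at 4.85 RPKM. Of the 7 members tested, 2 were higher in basal cells than in fibroblasts (Snai2 and Snai3, against 39.5% of all genes) and 5 lower (37.5%). Mef2d was the most abundant Mef2 gene in basal cells at 24.9 RPKM, against 0.188 for Mef2c. Among amino acid carriers of the Slc1a family, Slc1a5, a neutral amino acid exchanger, was at 38.2 RPKM and Slc1a3 at 2.02 RPKM in adult basal cells.

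**Figure D5:**
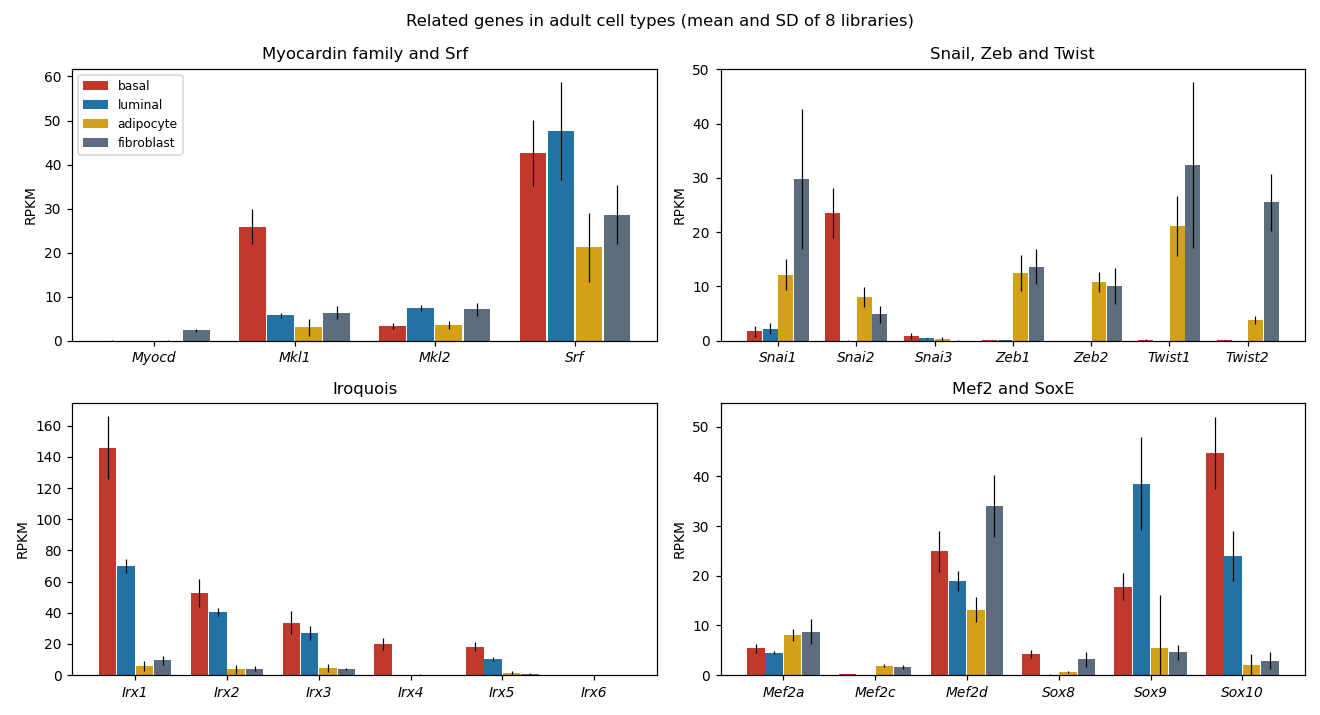
Mean level in RPKM, on linear axes from 0, of myocardin, Snail, Zeb, Twist, Iroquois, Mef2 and SoxE family members in the 4 adult cell types, with the SD of 8 libraries as error bars. In basal cells Mkl1 (25.9 RPKM), Snai2 (23.6), Irx1 (146) and Mef2d (24.9) stand out beside Myocd (0.0544), Zeb1 (0.0705) and Mef2c (0.188), which are too low to see.

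Among 14421 genes compared over the 40 libraries, the gene whose pattern was most like that of Trp63 was Col17a1 (Pearson r = 0.979 on log2 values), followed by Krt14 (0.978) and Krt5 (0.975). The closest to Irx4 was Cntn2 (0.988), to Snai2 Inka1 (0.960), to Sox10 Shroom3 (0.971) and to Mef2c Snhg18 (0.973). For Myocd it was Akap6 (0.982), for Slc1a3 Gnai1 (0.982), for Id2 Adora2b (0.919) and for Mkl2 Tsc1 (0.883). These coefficients are descriptions over libraries that share cell types, pools and depth.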

How the data were processed

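PolyA RNA of basal cells, luminal cells, adipocytes and fibroblasts of FVB/N mice was sequenced in 40 libraries, which were grouped by the labelled cell type, age and estrous stage. Per the labels and the study's methods, stranded libraries were read single-end, aligned to GRCm38 with TopHat 2.1 and Bowtie 1.1.0, and counted per gene with HTSeq. The strand setting of the counting is not given in the sources used here. The deposited tables hold raw counts per Ensembl gene. The authors' second pair of tables holds log2 values, which equal the log2 of the count scaled to a library total plus 1, and it was used only to check the counts.

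Ensembl identifiers were matched to GENCODE symbols (24726 of 25044 in the adult table, 23977 of 24268 in the pubertal). Genes over 1 CPM in at least 2 libraries were tested with edgeR 4.0.16 (R 4.3.3), using TMM normalisation, the quasi-likelihood test and Benjamini-Hochberg adjustment over all genes of a comparison at 0.05. A model with 16 groups covered the 32 adult libraries and another the 8 from puberty, for contrasts between cell types. Stages were contrasted within each cell type, and ages in a model of all 40. Printed CPM use TMM factors of all 40 libraries, and RPKM use the union of a gene's exons. A contrast of basal cells with the mean of the other 3 types was fitted but is not printed, because its errors were unstable where a type had almost no counts. DESeq2 1.42.0, other scaling, no filter, other models and leaving out each library were alternatives. Marker sums add the CPM of a list. Tests were checked on simulated data, and tables and figures were made with Python 3.11.15, pandas 2.3.3, scipy 1.17.1 and matplotlib 3.10.9.

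The members and the gene lists were chosen with earlier results of these data known. All 10 members are named, relatives come from the lists, and the closest genes are the 3 of highest Pearson r on log2(CPM + 1). The closest gene to Twist2 is not reported here. Intervals and limits for low counts cover counting error only. Cell types of one adult replicate came from the same pool of mice by the study's methods, and the correlation of their deviations ran from -0.08 to 0.30, over 0.1 in 9 of 24 comparisons. In puberty it ran from 0.07 to 0.26, but the adipocytes of the second pubertal replicate came from older mice (by 1 day) than its other cell types, so that number does not join 1 pool there.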

Additional observations from a re-analysis of the deposited data

Results flagged for a closer look

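Among 39 groups of 8 adult libraries examined, 10 had a single library whose gap to its nearest neighbour was large for the range of the group. The cutoff passes about 1 in 20 groups of independent, normally distributed values. These groups mix 4 stages, reuse the same libraries and include values near 0, so that their number cannot be set against that rate. In adipocytes the second diestrus replicate was the highest for Trp63, at 278.9 CPM against 33.9 for the next library, and for Myocd, at 1.136 CPM against 0.521, while the first diestrus replicate was the highest for Sox10 (22.85 CPM against 7.61) and Mkl2 (52.76 CPM against 35.1). These are the libraries with the largest basal, epidermal or luminal marker sums given in the report, and the part of those markers was not tested. In luminal cells and fibroblasts the highest Trp63 also lay in 1 diestrus library each. These were the second luminal replicate with 6.475 CPM against 3.341 and the first fibroblast replicate with 14.58 CPM against 4.787. The other diestrus replicate held 1.23 CPM in luminal cells and 2.18 CPM in fibroblasts. Luminal Irx4 was highest in the second diestrus luminal replicate as well, at 0.4133 CPM against 0.0865. In basal cells the second metestrus replicate was the highest for Snai2 (66.74 CPM against 51.3) and Mkl2 (41.31 CPM against 32.1), and the second diestrus replicate for Twist2 (0.7261 CPM against 0.327).

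The difference between puberty and adulthood itself differed between cell types for 6 genes, in a test of the interaction by edgeR. The basal difference exceeded that of adipocytes by 3.598 log2 units for Slc1a3 and by 2.079 for Mef2c, and fell short of it by -2.869 for Irx4 and by -2.57 for Sox10. Against fibroblasts the basal difference was larger by 3.084 for Slc1a3, 2.336 for Myocd, 1.581 for Mef2c and 1.443 for Id2. Both sets of tests share the basal libraries.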

How the results depend on the processing

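Of the counts of called genes, 118 values under alternatives were within 1.5 times the reported count and 14 were not. For single genes 1094 values kept their call or lack of one, 14 gained and 8 lost it. No called direction was turned. The shares of all genes called under the alternatives, DESeq2 among them, are not given here, so their counts have no background. Adult genes higher in basal cells than in each other type numbered 4 under every alternative and on leaving out each library. Leaving out 1 library gave 2 to 4 such genes in puberty, and 9 to 10, 7 to 8 and 9 to 9 called genes for adult basal cells against luminal cells, adipocytes and fibroblasts.

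Stage counts depended most on the method. Without a filter on low counts, 2 luminal genes were called between stages and 1 against the mean, and in fibroblasts 4 and 3. DESeq2 called 3 adipocyte genes between stages, and 2 fibroblast genes in either kind of comparison. A joint fit of the 32 adult libraries called 3 adipocyte genes and 1 fibroblast gene between stages. The shares of all genes given for stages come from edgeR fits of each cell type alone with the filter. They do not apply to these counts. Same-numbered libraries of different stages come from different mice, the numbers marking early and late pools where these could be told apart (correlation of deviations -0.67 to 0.43, over 0.1 in 6 of 24 comparisons). With the replicate block the adipocyte count against the mean fell from 3 to 0. Leaving out 1 adipocyte library gave 0 to 4 against the mean, 0 without any of the proestrus, estrus or metestrus libraries, and 0 to 3 between stages, 3 without either diestrus library.

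For puberty against adulthood, fits of each cell type alone gave 8 genes in basal cells and 2 in adipocytes, and DESeq2 gave 1 in luminal cells. Leaving out 1 library, with the dispersion trend of the full fit kept, gave 3 to 7 in basal cells (7 without the first diestrus adipocyte replicate), 0 to 1 in luminal cells (1 without the first pubertal replicate), 4 to 5 in adipocytes and 0 to 1 in fibroblasts (0 without the second pubertal replicate). The interaction of basal with luminal cells gave 1 gene with the replicate block of mouse pools and 0 to 1 on leaving out a library (1 without the first pubertal luminal replicate). That with adipocytes gave 4 to 5. That with fibroblasts gave 1 to 4, namely 2 without the first pubertal basal replicate, 2 without the first and 1 without the second pubertal fibroblast replicate. The block of pools also brought Mef2c past the threshold between adult adipocytes and fibroblasts, and changed no other call. The cause of these shifts was not tested. Depth limits Myocd, Mef2c, Irx4 and Snai2 in luminal cells and Twist2 in both epithelial layers, where libraries held few or no counts.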
